A study of Drosophila melanogaster with 9 samples.

Results

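Wing discs in which NAT10 was knocked down were compared, gene by gene, with discs that carried the driver alone, using 6 of the 9 libraries of the study (3 per genotype). NAT10 is the RNA acetyltransferase that places N4-acetylcytidine on small-subunit ribosomal RNA and on some transfer RNAs, and it takes part in making the small ribosomal subunit. The wing disc is the epithelial sac of the fly larva that gives rise to the wing and the back of the thorax. It grows by cell division through larval life, is patterned by selector genes and by the Hedgehog, Dpp, Wingless, Notch and EGF receptor pathways, and starts to differentiate when pulses of the steroid hormone ecdysone end the larval stage.

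The knockdown discs were en-GAL4 > UAS-NAT10-RNAi and the control discs en-GAL4 > +, all from larvae of the last instar whose stocks were kept at 25 °C. Each library came from RNA of 100 pooled discs, enriched with oligo(dT), and the labels describe the replicates as biological. The driver en-GAL4 is active only in the posterior compartment, so every library mixed targeted posterior cells with untargeted anterior ones, and the fold changes are those of the whole disc. The larvae's age in hours is not given in the labels, so genotype and developmental age cannot be told apart. The library names carry w1118 for the control and GD for the knockdown. A difference in stock background therefore cannot be told apart from genotype either. The third genotype, a double knockdown of NAT10 and Xrp1, entered the filter on low counts, the scaling and the shared estimate of the spread. Its levels are not compared here.

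Libraries held 17519054, 17036250 and 17952301 estimated counts in NAT10 knockdown and 18161577, 14183856 and 17183487 in control. Of 14168 entries in the table, 8487 passed the filter on low counts and were tested. The first principal component of the 6 libraries held 85.5% of the variance and separated the genotypes, while the second held 4.59%. All 6 markers of the disc epithelium were detected, with a summed level of 2187 to 2234 CPM (estimated counts scaled to a library size of 1000000, TMM-normalised) in NAT10 knockdown and 2743 to 2859 CPM in control. The fly gene for NAT10, l(1)G0020 (FBgn0027330, X:8716713-8720277, minus strand, BDGP6.54), stood at 61.4, 63.2 and 62.1 CPM in NAT10 knockdown and at 101, 103 and 101 CPM in control. Its log2 fold change was -0.70 ± 0.042 (SE), with an adjusted p of 6.2e-14. The gene of the driver, en, was lower by a similar amount, with a log2 fold change of -0.71 and 61.7 CPM in NAT10 knockdown against 101 CPM in control.

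The change reached most of the transcriptome. In edgeR (quasi-likelihood test, p-values adjusted by Benjamini-Hochberg) 5268 genes (62.1%) passed an adjusted p of 0.05, of which 2757 (32.5%) were higher and 2511 (29.6%) lower in NAT10 knockdown. The libraries of both genotypes did not overlap for 5564 genes (65.6%). Most of these changes were small. The median absolute log2 fold change was 0.24 over all tested genes, 0.40 over genes called higher, 0.30 over genes called lower and 0.08 over genes not called. A change under 1.25-fold accounted for 2481 of the called genes (47.1%).

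Large changes leaned upward. At least 2-fold, 571 genes (6.73%) were higher and 371 (4.37%) lower, which together made 17.9% of the called genes. At least 8-fold, 112 were higher and 66 lower, and at least 32-fold, 43 were higher and 15 lower. In all, 96 genes were called at over 10 times their control level, and 53 at more than 10-fold below it. In bulk RNA, fewer cells of a type and less RNA per cell cannot be told apart, which holds for every tissue programme described here.

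**Figure D1:**
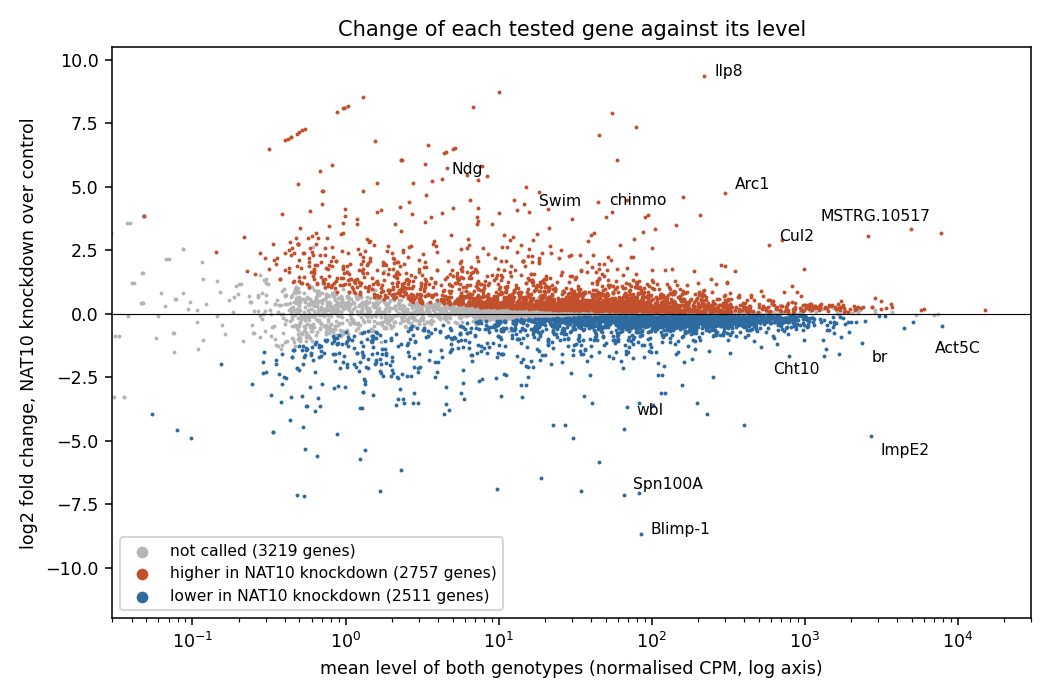
Each point is a tested gene, with its mean level over both genotypes on the horizontal axis (normalised CPM, log axis) and its log2 fold change, NAT10 knockdown over control, on the vertical axis. Genes called higher are orange, genes called lower blue and genes not called grey, and 46 genes under 0.03 CPM are not drawn. The spread of fold changes is widest at the left, and blue points crowd just under 0 at the right.

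How a gene changed was tied to how abundant its mRNA was. Genes were ordered by mean level and cut into 10 equal groups, with median levels of 0.648 CPM in the lowest and 426 CPM in the highest. Genes called lower made 16.1% of the lowest group, 12.6% of the third, 25.7% of the sixth and 56.7% of the highest. Genes called higher made 22.1% of the lowest group, were most frequent in the third at 40.8%, and made 28.2% of the highest. The median log2 fold change was 0.28 in the second group, 0.04 in the sixth, -0.01 in the seventh and -0.12 in the highest.

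Large changes were most frequent at low level. The median absolute log2 fold change was 0.81 in the lowest group, 0.17 in the sixth and 0.23 in the highest, so typical size did not fall throughout. The share of genes whose fold change was at least 2-fold, called or not, was 42.9% in the lowest group, 30.2% in the next, 12.1% in the third and between 3.06% and 7.89% in the others. Precision moved along the same axis, with a median SE of 0.46 log2 units in the lowest group and 0.028 in the highest. Its part in the shares called and in the shares at least 2-fold was not tested. The filter can keep a low-level gene that is abundant in only 1 genotype, the double knockdown included. The part of the filter in these shares was not tested either. The share called at all was 38.3% in the lowest group and 84.8% in the highest. Among genes called with at least 2-fold change, 176 were higher and 123 lower in the lowest group, while 15 were higher and 15 lower in the highest. Levels here are in CPM and not per length. With genes ordered by mean FPKM, which is per length, 42.4% of the lowest group and 4.005% of the highest changed at least 2-fold.

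**Figure D2:**
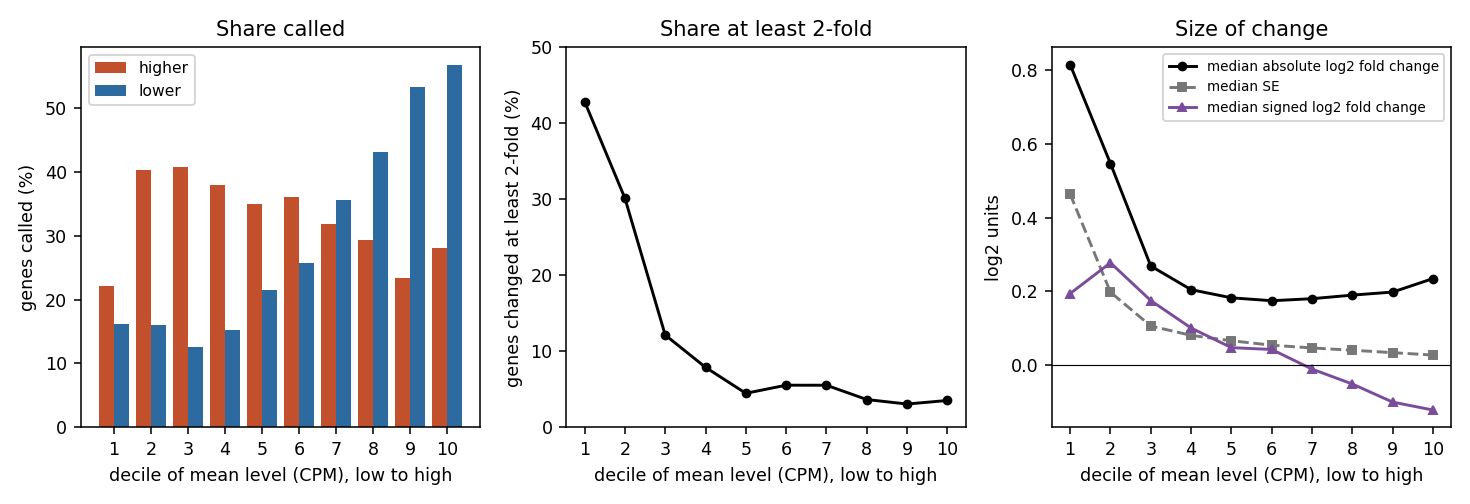
The tested genes are in 10 equal groups of rising mean level (horizontal axis, 1 lowest). The panels give the percent of genes called higher and lower in NAT10 knockdown, the percent with at least 2-fold change whether called or not, and the medians of the absolute log2 fold change, the SE and the signed log2 fold change. The share called lower rises to 56.7% in the tenth group, where the share with at least 2-fold change is 3.53%.

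Named examples show what these groups held. In the lowest-level range RabX2, a Rab-family gene, had 2.97, 2.47 and 2.39 CPM in NAT10 knockdown and no counts in any control library, which is at least 42.7-fold higher when 3 counts over the control group are taken as the floor. At high level Arc1, which encodes a Gag-like capsid protein, had 574, 601 and 558 CPM in NAT10 knockdown and 18.9, 22.9 and 21.7 CPM in control (log2 fold change 4.78 ± 0.054, adjusted p = 1.22e-22). Neither gene's libraries overlapped between genotypes. In the other direction CG5639 had 0.343, 0.236 and 0.667 CPM in NAT10 knockdown and 38.3, 34.7 and 39.8 CPM in control (log2 fold change -6.47). The serpin gene Spn100A had 1.14, 0.648 and 0.944 CPM in NAT10 knockdown and 129, 130 and 130 CPM in control (log2 fold change -7.14 ± 0.086, adjusted p = 4.44e-29). Both were near background in the knockdown and clearly expressed in control.

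Summed over genes, the increases came to 109722 CPM and the decreases to 117291 CPM, which are 10.97% and 11.7% of all normalised counts. The gain was more concentrated than the loss, since 74 genes carried 50% of the gain and 184 genes 50% of the loss. A pair of loci assembled from the reads and described in the deposited annotation as Copia, a long terminal repeat retrotransposon, led the gain together with a locus described as blastopia polyprotein. The larger Copia locus, MSTRG.10517, had 14241, 13573 and 14190 CPM in NAT10 knockdown and 1606, 1467 and 1486 CPM in control (9.21-fold, log2 fold change 3.20 ± 0.032, adjusted p = 6.83e-29). It alone made 11.4% of the gain, and these 3 loci made 22.4%. All assembled loci together took 3.47 ± 0.0736% of counts in NAT10 knockdown and 0.672 ± 0.0245% in control (SD, n = 3 each). Reads of repeated elements can be split between copies, so the level of a single such locus is uncertain.

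Among annotated genes the gain was led by mRNAs of high level. The translation elongation factor eEF1alpha1 averaged 15693 CPM in NAT10 knockdown and 14183 CPM in control (log2 fold change 0.15), and the RNA helicase gene Rm62 3457 CPM in NAT10 knockdown and 2248 CPM in control (0.62). The synaptic vesicle-priming gene unc-13 averaged 1520 ± 26.6 CPM in NAT10 knockdown and 442 ± 12.9 CPM in control (SD, n = 3 each, log2 fold change 1.78). Cul2, a cullin scaffold of ubiquitin ligases, had 1029, 990 and 1015 CPM in NAT10 knockdown and 157, 152 and 156 CPM in control, a log2 fold change of 2.71 ± 0.028 (adjusted p = 1.05e-30). The loss was led by ImpE2, an ecdysone-induced gene of disc eversion, with 183, 182 and 194 CPM in NAT10 knockdown and 5386, 5020 and 5136 CPM in control, which made 4.26% of all loss. Cytoskeletal mRNAs followed. Cytoplasmic actin Act5C averaged 6548 CPM in NAT10 knockdown and 9205 CPM in control (log2 fold change -0.49), and alpha-tubulin alphaTub84B 3593 CPM in NAT10 knockdown and 5330 CPM in control (-0.57). The 10 genes with the greatest loss held 15.9% of it.

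Genes of long merged exon length were called lower more often than those of short length. This length covers all annotated transcripts of a gene, and the length of the transcript expressed was not measured. Protein-coding genes were cut into 5 groups by merged exon length, with medians of 913 bases in the shortest and 5942 bases in the longest. The share called lower was 16.4%, 20.2%, 27.0%, 36.3% and 49.3% from the shortest group to the longest, and the share called higher 34.9%, 34.1%, 34.0%, 32.6% and 24.9%. Number of exons gave a like order, with 18.9% of 681 single-exon genes and 49.0% of 888 genes with at least 10 exons called lower. Longer transcripts collect more counts, so length and level were also crossed. Among genes of the 3 highest level groups the share called lower was 37.9% in the shortest length group and 59.1% in the longest, and among the middle 4 level groups 18.1% and 42.1%. In the 3 lowest level groups it was 7.98% in the shortest and 23.5% in the longest. The part of the counting precision in these shares was not tested.

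**Figure D3:**
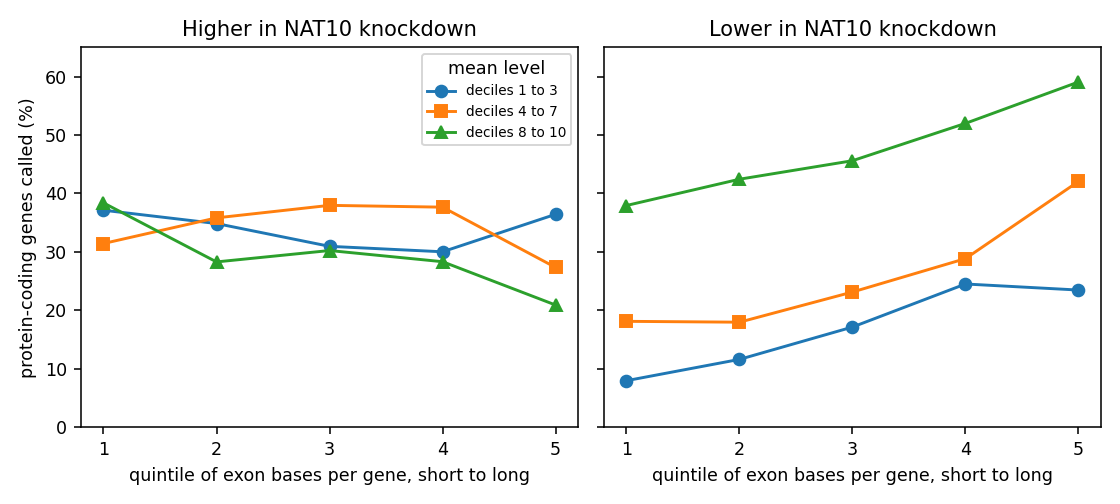
Protein-coding genes are grouped by merged exon length (horizontal axis, 1 shortest to 5 longest), and the vertical axes give the percent called higher (left panel) and lower (right panel) in NAT10 knockdown. Lines stand for genes of level groups 1 to 3, 4 to 7 and 8 to 10. The share called lower is higher at the right end of every line than at the left, and reaches 59.1% for long genes of high level.

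The chromosome arms differed little. Genes called higher made 36.3% of 1396 tested genes on X and between 29.5% and 33.4% on the large autosomal arms. The small chromosome 4 had 34 of 70 genes called lower (48.6%) and 21 called higher.

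Gene lists by function sorted into groups that rose, groups that fell and groups that stayed mixed. The background for each count is 32.5% of genes higher, 29.6% lower and a median log2 fold change of 0.03. In all 1523 tested genes belonged to at least 1 of 63 lists, and 70.2% of them were called.

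**Figure D4:**
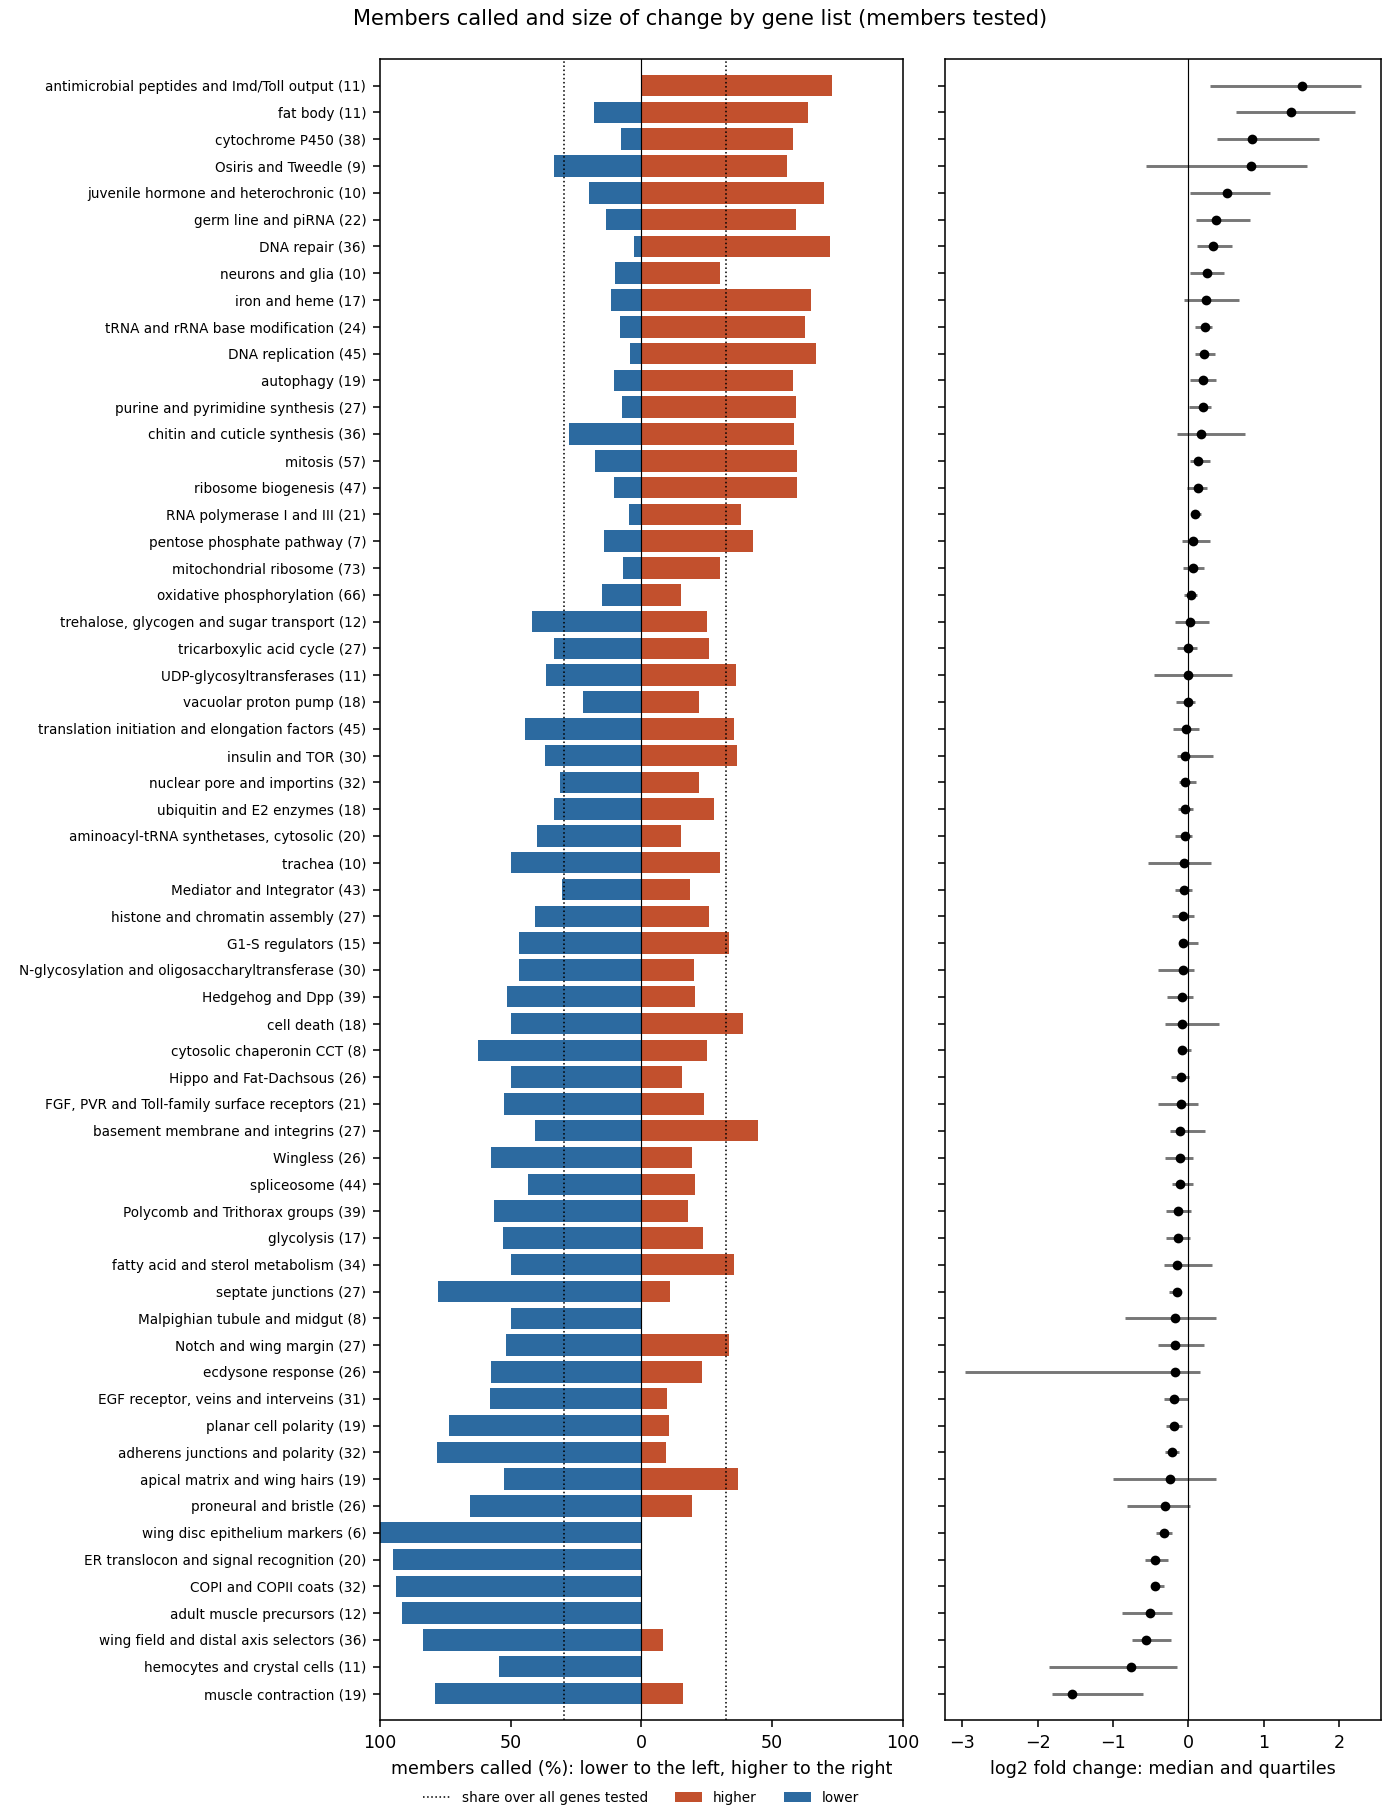
Each row is a gene list with at least 6 tested members (number in brackets), ordered by median. The left panel gives the percent of members called higher (orange, to the right) and lower (blue, to the left) in NAT10 knockdown, with dotted lines at the shares over all tested genes, 32.5% and 29.6%. The right panel gives the median log2 fold change with its quartiles. Lists of secretion, wing selectors and muscle lie at the bottom, and DNA repair, DNA replication, cytochrome P450 and fat body lists near the top.

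Genes of DNA replication rose together by small amounts. Of 45 tested members 30 were called higher and 2 lower, with a median log2 fold change of 0.20. The single-stranded DNA binding complex led the list. Its subunit gene RPA3 had 64.2, 60.8 and 63.7 CPM in NAT10 knockdown and 33.2, 33.9 and 32.1 CPM in control (log2 fold change 0.93 ± 0.051, adjusted p = 1.29e-14), and RPA1 averaged 415 CPM in NAT10 knockdown and 237 CPM in control (0.81). The replication inhibitor geminin was among the few that fell, by 0.14 on the log2 scale. Genes of mitosis showed the same lean, with 34 of 57 higher, 10 lower and a median of 0.13. The centrosome gene cnn averaged 142 CPM in NAT10 knockdown and 96.6 CPM in control (0.56). The mitotic cyclin CycA (-0.19) and the checkpoint kinase Bub1 (-0.28) fell. G1-S regulators were mixed, with 5 of 15 higher and 7 lower, and the cyclin gene CycE stood at 85.6 CPM in NAT10 knockdown and 84.3 CPM in control without passing the test. In that list ago, the F-box gene that targets Cyclin E and Myc for degradation, averaged 204.5 CPM in NAT10 knockdown and 315 CPM in control (-0.62).

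Ribosome biogenesis genes, which serve the process in which NAT10 itself works, also rose by small amounts: 28 of 47 were higher and 5 lower, with a median log2 fold change of 0.13. Non1, a GTPase gene of the large ribosomal subunit (2R:9396265-9398734, minus strand), had 1113, 1139 and 1098 CPM in NAT10 knockdown and 506, 542 and 536 CPM in control. It was the only list member past 2-fold (log2 fold change 1.08 ± 0.028, adjusted p = 7.12e-22), and no knockdown library came near a control library. The kinase gene RIOK1, of small-subunit maturation, averaged 51.0 CPM in NAT10 knockdown and 32.9 CPM in control (0.64). Genes of transfer RNA and ribosomal RNA base modification, a list that holds l(1)G0020 itself, had 15 of 24 members higher and 2 lower (median 0.22). Its leader Ctu2, of the wobble-uridine thiolation complex, averaged 30.0 CPM in NAT10 knockdown and 10.6 CPM in control (1.499 ± 0.088, adjusted p = 5.18e-14). RNA polymerase I and III subunits had 8 of 21 higher and 1 lower (0.09).

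Parts of the translation machinery differed in direction. The genes that the deposited annotation places in the ribosome pathway had 75 of 131 members higher and 4 lower, with a median log2 fold change of 0.20. Initiation and elongation factors had 16 of 45 members higher and 20 lower, with a median of -0.03. The anti-association factor gene eIF6 had 164, 171 and 165 CPM in NAT10 knockdown and 99.6, 91.5 and 92.4 CPM in control (log2 fold change 0.82 ± 0.045, adjusted p = 5.21e-14). The second elongation factor 1 alpha gene, eEF1alpha2, had 23.7, 25.0 and 21.8 CPM in NAT10 knockdown and 62.3, 68.1 and 69.6 CPM in control (-1.505 ± 0.066, adjusted p = 2.12e-16), the reverse of the direction of eEF1alpha1. Cytosolic aminoacyl-tRNA synthetases had 3 of 20 higher and 8 lower, and mitochondrial ribosomal proteins 22 of 73 higher and 5 lower, at a median of 0.05.

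Growth pathways were split. In the insulin and TOR list 11 of 30 were higher and 11 lower. The largest increase was in Thor (2.29), the gene of an inhibitor of cap-dependent translation. REPTOR, a transcription factor held back by TOR complex activity, had 85.4, 80.8 and 81.3 CPM in NAT10 knockdown and 33.4, 33.1 and 34.4 CPM in control (1.29 ± 0.048, adjusted p = 2.56e-18). Its partner gene REPTOR-BP averaged 31.3 CPM in NAT10 knockdown and 15.3 CPM in control (1.03). The insulin receptor gene InR had 97.9, 101 and 93.0 CPM in NAT10 knockdown and 182, 174 and 168 CPM in control (-0.85 ± 0.038, adjusted p = 1.44e-16), and the Myc antagonist Mnt averaged 40.3 CPM in NAT10 knockdown and 79.5 CPM in control (-0.98). In the Hippo and Fat-Dachsous list 4 of 26 were higher and 13 lower (median -0.10). The kinase gene wts fell by 0.42 on the log2 scale, while yki, the growth-promoting coactivator that wts restrains, stood at 89.9 CPM in NAT10 knockdown and 93.7 CPM in control and did not pass the test (adjusted p = 0.564).

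Metabolic genes changed in separate blocks and not as a whole. Purine and pyrimidine synthesis had 16 of 27 members higher and 2 lower (median 0.19), led by the adenylate kinase gene Adk3 at 183 CPM in NAT10 knockdown and 97.6 CPM in control (0.91). The iron and heme list had 11 of 17 higher and 2 lower (0.23). In it IscU, the scaffold of iron-sulfur cluster assembly, had 61.9, 60.9 and 58.8 CPM in NAT10 knockdown and 28.0, 24.7 and 28.1 CPM in control (1.16 ± 0.060, adjusted p = 3.29e-15). The cysteine desulfurase gene Nfs1, which feeds sulfur to that scaffold, averaged 106 CPM in NAT10 knockdown and 51.1 CPM in control (1.05). Cytochrome P450 genes, of which 38 of 83 passed the filter on low counts, had 22 higher, 16 of them at least 2-fold, and 3 lower (median 0.84). Cyp9f2, for example, averaged 8.82 CPM in NAT10 knockdown and 2.73 CPM in control (1.70), whereas Cyp301a1 fell by 0.83 on the log2 scale. The filter, which used all 9 libraries, can keep a gene that is abundant in only 1 genotype, the double knockdown included. Cyp6a20, for instance, had 362 counts over the NAT10 knockdown libraries and 3 over the control libraries. Cyp6a18 was tested with no counts in any of the 6 libraries compared. The part of the filter in the P450 counts and median was not tested.

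Central carbon metabolism moved less. Oxidative phosphorylation genes had 10 of 66 higher and 10 lower with a median of 0.04, and the tricarboxylic acid cycle 7 of 27 higher and 9 lower. Glycolysis had 4 of 17 higher and 9 lower (-0.14). The sugar transporter gene Glut1 had 16.1, 18.1 and 15.2 CPM in NAT10 knockdown and 59.5, 59.4 and 59.8 CPM in control (-1.86 ± 0.061, adjusted p = 2.1e-19), with no overlap. Lipid genes were mixed, with 12 of 34 higher and 17 lower. The stearoyl-CoA desaturase gene Desat1 had 676, 677 and 667 CPM in NAT10 knockdown and 353, 375 and 363 CPM in control (0.89 ± 0.026, adjusted p = 1.97e-20), while the fatty acid transport gene Fatp2 averaged 4.08 CPM in NAT10 knockdown and 11.2 CPM in control (-1.46).

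Markers of the fat body, a metabolic organ outside the discs, moved along with these blocks. The summed level of its 6 markers was 61.8 to 67.8 CPM in NAT10 knockdown and 12.4 to 15.5 CPM in control, with 5 of the 6 called higher. The wider list of fat body genes had 7 of 11 higher and 2 lower. Its most abundant member, Mtp, was lower, at 59.9 CPM in NAT10 knockdown and 75.5 CPM in control (-0.34). The storage protein gene Lsp1beta had 19.8, 19.4 and 18.8 CPM in NAT10 knockdown and 2.17, 2.41 and 2.17 CPM in control (3.10 ± 0.094, adjusted p = 2.95e-20). The part of fat body RNA in the metabolic changes was not tested. Markers of midgut summed to 0.229 to 0.611 CPM in NAT10 knockdown and 0.0710 to 0.469 CPM in control, those of Malpighian tubule to 0.343 to 0.942 CPM in NAT10 knockdown and 0.293 to 0.639 CPM in control, and those of salivary gland to 0.177 to 0.333 CPM in NAT10 knockdown and 0.223 to 0.879 CPM in control. All of these sums are under 1 CPM, and the defining markers Alp4 of tubule and Jon25Bi of midgut had no counts in these libraries.

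The entry to the secretory pathway fell almost as a block. Of 20 genes of the endoplasmic reticulum translocon and signal recognition 19 were called lower and none higher, with a median log2 fold change of -0.44. The coat genes that carry vesicles between that compartment and the Golgi, COPI and COPII, had 30 of 32 lower and none higher (median -0.45). The translocon pore gene Sec61alpha (2L:6477182-6480575, minus strand) had 428, 433 and 426 CPM in NAT10 knockdown and 802, 828 and 838 CPM in control. Its log2 fold change was -0.94 ± 0.026 (adjusted p = 3.46e-21), and the groups were far apart. The signal sequence receptor SsRbeta (-0.82), the cargo receptors loj (-0.82) and ergic53 (-0.72) and the Golgi stacking gene Grasp65 (-0.73) fell by amounts close to that.

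Downstream and upstream genes of secretion were less uniform. The list of N-glycosylation and oligosaccharyltransferase genes, with the folding factors beside them, had 14 of 30 lower and 6 higher (-0.08). The chaperone gene Calr averaged 1162 CPM in NAT10 knockdown and 1941 CPM in control (-0.74), and Alg1, of lipid-linked oligosaccharide synthesis, rose by 0.51. In the same list wbl, a resident of the endoplasmic reticulum related to disulfide isomerases, had 10.9, 9.42 and 9.39 CPM in NAT10 knockdown and 128, 127 and 127 CPM in control (-3.68 ± 0.057, adjusted p = 7.35e-27). CrebA, the transcription factor known for raising secretory pathway genes, averaged 76.1 CPM in NAT10 knockdown and 219 CPM in control (-1.52). Vacuolar proton pump genes had 4 of 18 higher and 4 lower with a median of 0.00, and autophagy genes 11 of 19 higher and 2 lower (0.19).

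Nuclear gene expression machinery changed in small steps. Polycomb and Trithorax group genes had 22 of 39 lower and 7 higher (-0.13), and the spliceosome 19 of 44 lower and 9 higher (-0.12). Mediator and Integrator had 13 of 43 lower (30.2%) and 8 higher (-0.06), and nuclear pore and importin genes 10 of 32 lower (31.2%) and 7 higher (-0.04), both shares lower being near the 29.6% of all tested genes. None of the members of these 4 lists was called at 2-fold. The Polycomb group zinc finger gene jing averaged 205.3 CPM in NAT10 knockdown and 293 CPM in control (-0.51), and the branch-site recognition gene Sf3b1 161 CPM in NAT10 knockdown and 201 CPM in control (-0.32). The splicing factor gene Prp31 went the other way, at 82.0 CPM in NAT10 knockdown and 56.3 CPM in control (0.55).

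The hormone-timed programme held some of the deepest decreases. Of 26 ecdysone response genes 15 were lower, 10 of them at least 2-fold, and 6 were higher. Blimp-1 (3L:5630983-5652094, plus strand), an ecdysone-induced transcriptional repressor, had 0.343, 0.412 and 0.444 CPM in NAT10 knockdown and 179, 159 and 168 CPM in control (-8.69 ± 0.10, adjusted p = 2.62e-29). The nuclear receptor genes Eip78C (-5.84) and Hr3 (-6.99) were also far lower, although 61.8% of the exon bases of Hr3 are shared with another gene in the table and its count is uncertain. The receptor of the hormone, EcR, went the other way, with 327, 315 and 314 CPM in NAT10 knockdown and 183, 172 and 171 CPM in control (0.86 ± 0.031, adjusted p = 1.04e-18). The early response gene br averaged 1475 CPM in NAT10 knockdown and 3267 CPM in control (-1.15), and ftz-f1, a nuclear receptor gene of the prepupal stage, 108 CPM in NAT10 knockdown and 16.6 CPM in control (2.70). In the list of juvenile hormone and heterochronic genes 7 of 10 were higher and 2 lower (0.51). Its leader chinmo, a factor of early larval identity, had 304, 307 and 305 CPM in NAT10 knockdown and 13.7, 12.4 and 11.8 CPM in control (4.59 ± 0.047, adjusted p = 1.05e-30). The part of these levels in the tissue programmes that follow was not tested.

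Genes that define the wing field fell as a group. Of 36 tested members 30 were lower, 6 of them at least 2-fold, and 3 were higher, with a median log2 fold change of -0.56. Dll, the homeobox gene of distal appendage identity, had 49.998, 53.3 and 50.3 CPM in NAT10 knockdown and 126, 120 and 116 CPM in control (-1.24 ± 0.050, adjusted p = 3.23e-17). The wing selector vg had 147, 146 and 150 CPM in NAT10 knockdown and 248, 219 and 223 CPM in control (-0.64 ± 0.063, adjusted p = 1.01e-05). Of other members the T-box gene Doc2 averaged 13.5 CPM in NAT10 knockdown and 28.4 CPM in control (-1.07), the proximal gene hth 556 CPM in NAT10 knockdown and 850 CPM in control (-0.61), and the notum gene tup 37.7 CPM in NAT10 knockdown and 37.3 CPM in control without passing the test.

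Genes of veins, interveins and sense organs held several decreases of more than 2-fold. The list of EGF receptor, vein and intervein genes had 18 of 31 lower and 3 higher (-0.19). The intervein factor gene bs had 55.3, 59.1 and 53.7 CPM in NAT10 knockdown and 160, 155 and 159 CPM in control (-1.496 ± 0.044, adjusted p = 1.61e-20), and the vein gene rho averaged 3.26 CPM in NAT10 knockdown and 9.995 CPM in control (-1.61). Genes of both vein and intervein were among those that fell. The collier gene kn, which patterns the central intervein, had 11.04, 9.78 and 8.78 CPM in NAT10 knockdown and 52.2, 48.8 and 48.2 CPM in control (-2.34 ± 0.078, adjusted p = 2.57e-19). Of 26 proneural and bristle genes 17 were lower and 5 higher (-0.31, or -0.18 over those with at least 5 CPM in 3 libraries). The sense organ precursor gene sens had 1.26, 0.648 and 1.22 CPM in NAT10 knockdown and 10.9, 9.79 and 11.5 CPM in control (-3.35 ± 0.18, adjusted p = 1.27e-14). In the same list chn, a zinc finger gene that promotes bristle formation, averaged 260 CPM in NAT10 knockdown and 144 CPM in control (0.85), and f, an actin-bundling gene of bristles, 11.9 CPM in NAT10 knockdown and 2.81 CPM in control (2.08).

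The signalling pathways themselves shifted modestly. Hedgehog and Dpp genes had 20 of 39 lower and 8 higher (-0.09), Wingless genes 15 of 26 lower and 5 higher (-0.11), and Notch and wing margin genes 14 of 27 lower and 9 higher (-0.17). The ligand gene dpp stood at 104 CPM in NAT10 knockdown and 106 CPM in control (adjusted p = 0.422), and its target bi at 173 CPM in NAT10 knockdown and 167 CPM in control (adjusted p = 0.367), neither passing the test. The ligand gene wg averaged 103 CPM in NAT10 knockdown and 133 CPM in control (-0.37), and the margin gene ct 22.99 CPM in NAT10 knockdown and 43.7 CPM in control (-0.93). Wnt ligands of lower level fell further, with Wnt4 at 4.57 CPM in NAT10 knockdown and 15.1 CPM in control (-1.72) and Wnt2 at 20.3 CPM in NAT10 knockdown and 53.4 CPM in control (-1.40). Swim, whose product binds Wingless outside the cell, had 28.9, 30.6 and 29.9 CPM in NAT10 knockdown and 1.90, 1.42 and 2.17 CPM in control (4.005 ± 0.12, adjusted p = 2.88e-20).

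Genes that hold the epithelium together were lower in most cases, largely by small amounts. Adherens junction and polarity genes had 25 of 32 lower and 3 higher (-0.22), septate junction genes 21 of 27 lower and 3 higher (-0.15), and planar polarity genes 14 of 19 lower and 2 higher (-0.19). The cadherin gene shg averaged 786 CPM in NAT10 knockdown and 1069 CPM in control (-0.44), the non-muscle myosin gene zip 1250 CPM in NAT10 knockdown and 1787 CPM in control (-0.52), and the septate junction gene Lac 466 CPM in NAT10 knockdown and 688 CPM in control (-0.56). A few members rose, among them the polarity gene sdt (0.22) and the wing hair gene mwh (0.67). The kinase gene nmo, of planar polarity, was the only member of its list past 2-fold, at 106 CPM in NAT10 knockdown and 275 CPM in control (-1.37).

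The extracellular matrix changed in composition and by larger steps. Basement membrane and integrin genes had 12 of 27 higher and 11 lower. The nidogen gene Ndg had 8.18, 9.48 and 7.17 CPM in NAT10 knockdown and 0.167, 0.426 and 0.0586 CPM in control (5.29 ± 0.36, adjusted p = 6.81e-12), and the collagen IV gene vkg averaged 107 CPM in NAT10 knockdown and 66.5 CPM in control (0.69). Papilin, encoded by Ppn, fell to 381, 378 and 377 CPM in NAT10 knockdown, against 1178, 1191 and 1183 CPM in control (-1.64 ± 0.027, adjusted p = 1.97e-26), and the matrix protease gene Mmp2 averaged 30.4 CPM in NAT10 knockdown and 86.5 CPM in control (-1.51). Fat body and hemocytes are known sources of basement membrane proteins in the larva. Hemocyte markers summed to 11.8 to 14.99 CPM in NAT10 knockdown and 14.3 to 15.05 CPM in control, while fat body markers were higher as given above. These hemocyte sums rest mainly on Hml and Pxn, neither of which passed the test, whereas NimC1 (-0.91) and srp (-1.60) were called lower. The wider list of hemocyte and crystal cell genes had 6 of 11 lower, 4 of them at least 2-fold, and none higher. Their part in these changes was not tested.

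On the apical side, 7 of 19 genes of apical matrix and wing hairs were higher and 10 lower (-0.24). The zona pellucida gene dy averaged 0.528 CPM in NAT10 knockdown and 8.32 CPM in control (-3.95), and its relative neo 67.6 CPM in NAT10 knockdown and 255 CPM in control (-1.91). The giant matrix gene dpy averaged 1133 CPM in NAT10 knockdown and 632 CPM in control (0.84). Chitin and cuticle synthesis had 21 of 36 higher and 10 lower (0.16). The chitin deacetylase gene Cda5 had 71.7, 69.3 and 73.7 CPM in NAT10 knockdown and 18.3, 20.01 and 17.6 CPM in control (1.94 ± 0.076, adjusted p = 4.83e-16). The chitinase genes Cht7 and Cht10 changed in opposite directions. Cht7 averaged 151 CPM in NAT10 knockdown and 66.9 CPM in control (1.17), and Cht10 829 CPM in NAT10 knockdown and 2508 CPM in control (-1.598). The pigment enzyme gene ple averaged 0.476 CPM in NAT10 knockdown and 5.49 CPM in control (-3.50).

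DNA repair genes rose. Of 36 tested members 26 were higher, 5 of them at least 2-fold, and 1 was lower, with a median of 0.33. The end-joining genes Irbp (1.50) and Ku80 (1.29), which encode the Ku heterodimer, rose most, followed by mre11, rad50 and nbs (1.05), genes of the double-strand break sensor complex. Of these rad50 had 176, 176 and 173 CPM in NAT10 knockdown and 85.8, 84.3 and 82.4 CPM in control (1.06 ± 0.036, adjusted p = 4.95e-19), and mre11 averaged 143 CPM in NAT10 knockdown and 59.6 CPM in control (1.26). The exception was the checkpoint kinase gene grp at -0.25. Genes of cell death were split, with 7 of 18 higher and 9 lower. Of the 37 antimicrobial peptide and Imd or Toll output genes only 11 passed the filter and were tested. Of these 8 were higher and none lower, and 3 did not pass the test. No antimicrobial peptide gene was among those tested, which were mainly signalling factors and receptors. Some of those called higher averaged under 1 CPM in both genotypes. The largest increase was in Dif, at 93.8 CPM in NAT10 knockdown and 6.58 CPM in control (3.82). The NF-kappaB gene dl averaged 84.7 CPM in NAT10 knockdown and 56.0 CPM in control (0.60), and Rel 84.0 CPM in NAT10 knockdown and 73.9 CPM in control (0.18).

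Marker lists of the other cells in a disc moved in different directions. Adult muscle precursors, the myoblasts that lie on the notum, had 11 of 12 members lower and none higher (-0.51). The list includes vg, also a marker of the disc epithelium, and ct, named above as a margin gene. In that list zfh1 had 18.6, 18.9 and 18.2 CPM in NAT10 knockdown and 44.2, 40.2 and 45.0 CPM in control (-1.22 ± 0.070, adjusted p = 2.76e-14). Muscle contraction genes had 15 of 19 lower, 13 of them at least 2-fold, and 3 higher (-1.54). Over the members with at least 5 CPM in 3 libraries alone, the median was -0.51. The muscle actin gene Act57B had 12.4, 11.3 and 9.55 CPM in NAT10 knockdown and 41.5, 40.4 and 41.4 CPM in control (-1.89 ± 0.082, adjusted p = 6.87e-17). The titin-like gene sls was an exception at 182 CPM in NAT10 knockdown and 99.7 CPM in control (0.87), as were Mlc2 (0.88) and Zasp52 (0.25). The crystal cell markers PPO1, PPO2 and lz summed to 1.602 to 2.83 CPM in NAT10 knockdown and 9.75 to 12.5 CPM in control.

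The list of trachea genes had 3 of 10 higher and 5 lower (-0.06). Of the 3 tracheal markers 1 was called higher and 2 lower. Their sum was 228 to 241 CPM in NAT10 knockdown and 188 to 199 CPM in control, with the chitin-binding gene Gasp at 170 CPM in NAT10 knockdown and 99.6 CPM in control (0.77) and the tracheal transcription factor gene trh at 57.8 CPM in NAT10 knockdown and 84.2 CPM in control (-0.55). Neuron and glia markers summed to 99.2 to 106 CPM in NAT10 knockdown and 93.1 to 104 CPM in control. The list of neuron and glia genes had 3 of 10 higher, 1 lower and 6 not called, among the last the pan-neuronal gene elav (0.03). Its largest increase was in the calcium channel gene cac, which averaged 36.9 CPM in NAT10 knockdown and 7.01 CPM in control (2.39 ± 0.084, adjusted p = 6.89e-19). Genes of the germ line piRNA pathway, which silences transposons in the gonad, had 13 of 22 higher and 3 lower (0.37). Among them spn-E averaged 23.6 CPM in NAT10 knockdown and 9.94 CPM in control (1.25), AGO3 13.2 CPM in NAT10 knockdown and 5.31 CPM in control (1.32), and krimp 12.3 CPM in NAT10 knockdown and 4.37 CPM in control (1.48).

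**Figure D5:**
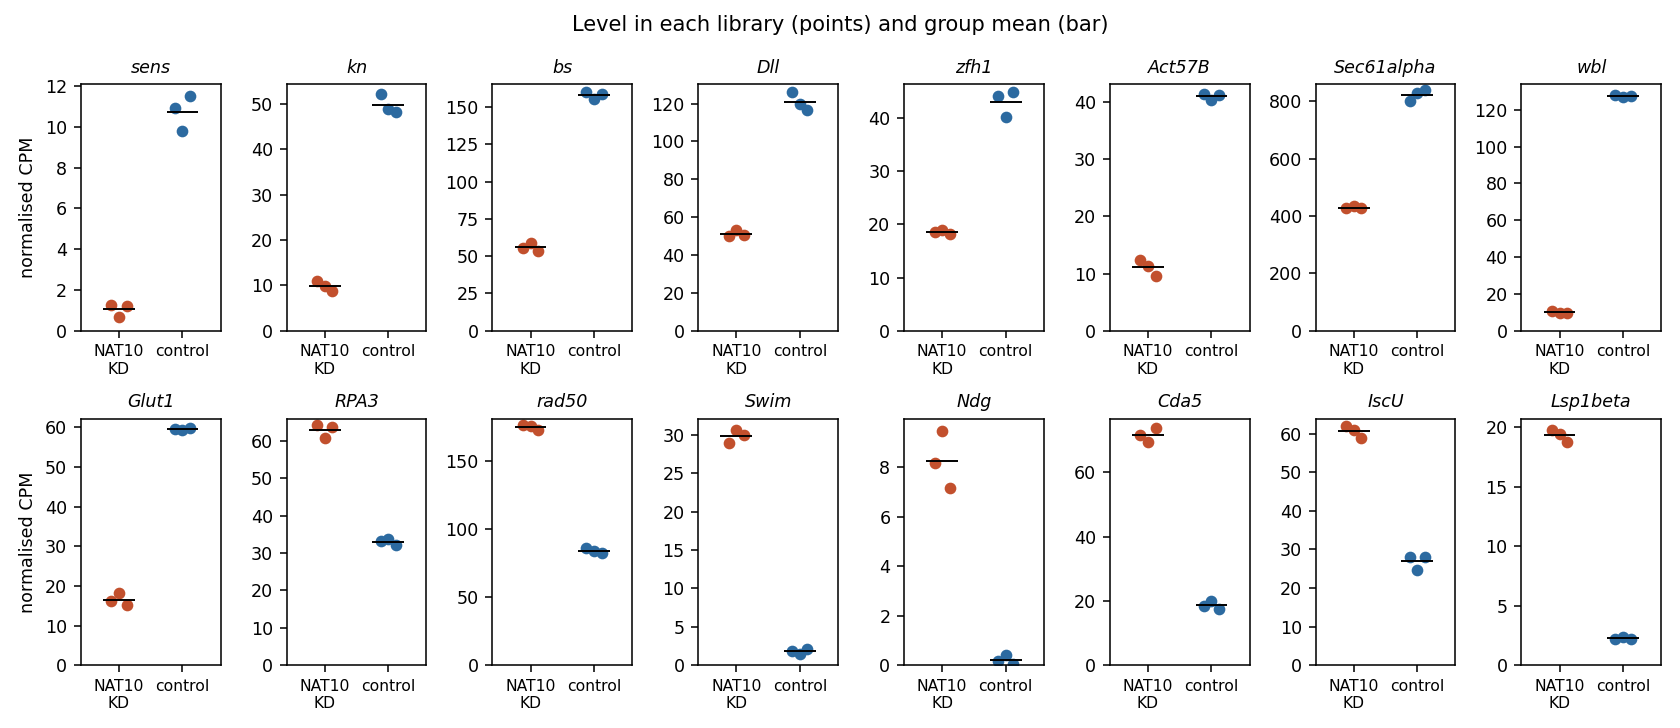
Each panel shows 1 gene, with a point per library and a bar at the group mean (normalised CPM, axis from 0), NAT10 knockdown left and control right. In every panel the 3 knockdown libraries lie apart from the 3 control libraries. Genes of patterning, muscle, secretion and glucose uptake are lower in NAT10 knockdown, and genes of replication, repair, matrix, chitin, iron-sulfur clusters and fat body are higher.

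The pathway names in the deposited annotation, which come from KEGG, gave a grouping not drawn from the lists. It rests on the same fit and shares genes with the lists, such as Sec61alpha in protein export. Of 206 pathways with at least 10 tested genes, 138 had a median log2 fold change under 0 and 68 above. Pathways share genes, so these are not counts of independent units, and the median over all tested genes was 0.03. Protein export, with 18 of 22 members lower (-0.38), and the proteasome, with 34 of 39 lower and 2 higher (-0.30), lay near the low end. Rpn5, a subunit of the proteasome lid, averaged 241 CPM in NAT10 knockdown and 353 CPM in control (-0.55). Mucin-type O-glycan synthesis had 7 of 13 lower (-0.33), with the transferase gene Pgant9 at 40.6 CPM in NAT10 knockdown and 101 CPM in control (-1.32). At the high end were arginine biosynthesis (6 of 12 higher, median 0.51), insect hormone biosynthesis (6 of 14 higher, 4 lower, 0.43), the Fanconi anemia pathway (20 of 26 higher, 0.41) and homologous recombination (19 of 23 higher, 0.41). The last 2 share genes with each other and with the DNA repair and replication lists. In insect hormone biosynthesis Aldh, an aldehyde dehydrogenase gene, averaged 159 CPM in NAT10 knockdown and 17.1 CPM in control (3.22), and the juvenile hormone epoxide hydrolase gene Jheh2 463 CPM in NAT10 knockdown and 274 CPM in control (0.76).

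Transcription factors, by the families named in the deposited annotation, were called lower more often than higher. Of 470 tested factor genes 133 (28.3%) were higher and 167 (35.5%) lower, against 32.7% and 29.2% of the 8017 other genes. Homeobox genes leaned lowest, with 19 of 31 lower, 3 higher and a median log2 fold change of -0.52. ZBTB genes went both ways by large steps, with 6 of 13 higher, 6 lower and a median absolute log2 fold change of 0.93. Among them fru, a gene best known for sexual behaviour circuits, had 452, 448 and 443 CPM in NAT10 knockdown and 125, 119 and 114 CPM in control (1.91 ± 0.042, adjusted p = 8.08e-17). The stress-linked bZIP gene Atf3 averaged 79.0 CPM in NAT10 knockdown and 23.5 CPM in control (1.74), and the circadian bZIP gene Pdp1 56.6 CPM in NAT10 knockdown and 24.6 CPM in control (1.204). Xrp1, the bZIP factor knocked down in the third genotype, averaged 941 CPM in NAT10 knockdown and 521 CPM in control (0.85).

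The authors' deposited table of this comparison listed 2021 genes higher and 860 lower at a false discovery rate under 0.05, fewer than called here. Of its genes that were tested here, 2802 in number, 2794 were called here in the direction of the authors' deposited table and 0 in the opposite one. A further 2474 genes were called here only. At a false discovery rate under 0.05 and at least 2-fold, the authors' deposited table held 597 genes higher and 324 lower, which is close to the 571 and 371 found here. By level group its share under 0.05 ran from 23.4% in the lowest to 42.9% in the second and 38.5% in the highest, whereas the share called here was 38.3% in the lowest group, 56.3% in the second and 84.8% in the highest.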

How the data were processed

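Wing disc RNA was sequenced from 3 genotypes with 3 libraries each, grouped by the genotype in the labels. The values analysed were estimated counts per gene as deposited. The submitters' processing notes name HISAT2 (2.1.0), StringTie (1.3.1), fastp (0.18.0) and RSEM, with no step assigned to each. FPKM values deposited by the authors served only to order genes by level in an alternative. Log2 ratios, p-values and false discovery rates of the authors' deposited table were used for description, and neither its test nor the genome build is given in the sources used here. Coordinates come from BDGP6.54, release 115. Strand use in counting is likewise not known.

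Values that were not whole (8.19% to 9.11% in a library) were rounded. With edgeR 4.0.16 under R 4.3.3, TMM scaling and filterByExpr were followed by a robust quasi-likelihood fit of all 9 libraries, and p-values were adjusted by Benjamini-Hochberg over 8487 genes, with calls under 0.05. The common biological coefficient of variation came to 3.61%, and replicate pairs had Pearson correlations of 0.994 to 0.995. Libraries had 0.150 to 0.213 CPM at a floor of 3 counts, which covers counting error only. The p-values measure the spread between these pooled libraries. DESeq2 1.42.0 was an alternative, and tables and figures were made with Python 3.11.15 (numpy 2.4.6, pandas 2.3.3, matplotlib 3.10.9, scipy 1.17.1).

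The table paired 13963 entries with a FlyBase identifier, 13918 of them in the reference names, and held 205 loci assembled from reads. Members, gene lists and tests were chosen with earlier results of these data known, and list membership was corrected for gene identity after values were seen. The genes named are the targeted gene, Xrp1 and en, the largest changes in each level group, the 15 largest changes of each direction with no overlap and at least 5 CPM, up to 3 called members of each direction per list, members of the pathways with extreme medians, and the 10 genes of each direction with the largest difference in CPM. CycE, yki, tup, dpp, bi and elav, which passed no test, are outside that rule. So are PPO1, NimC1, srp, Hml, Pxn, lz, Alp4 and Jon25Bi, given as markers, and nbs and Cyp6a18, named beside other members of their lists. Pdp1, Atf3 and fru were chosen after their values were seen. Of 398 genes the rule named, 13 share at least 20% of their exon bases with another gene in the table. No sequence is printed, and roX1 was not analysed here.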

Additional observations from a re-analysis of the deposited data

How the results depend on the processing

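The counts of genes called moved little with the processing. With all libraries kept, genes called higher ranged from 2362 with a filter of 5 CPM in 3 libraries (2385 with DESeq2) to 2867 with library totals as the only scaling, and genes called lower from 2365 with that filter to 2698 with no filter on low counts, against 2757 and 2511 as reported, at an adjusted p under 0.05. A stricter threshold of 0.01 left 2261 and 2166. With only the 6 compared libraries in the fit, on the same 8487 genes, 2587 were higher and 2633 lower. The median log2 fold change was then 0.013, and more calls were lower than higher. The median log2 fold change of all genes was 0.013 with RLE size factors, 0.041 with library totals and 0.030 as reported, and the higher share of the calls was 48.8% with DESeq2 and 54.1% with library totals, against 52.3% as reported. With only genes of at least 5 CPM in 3 libraries, the genes at least 2-fold changed numbered 312 higher and 199 lower, fewer because low-level genes were not tested. With genes grouped by their control level alone, 47.3% of the lowest group changed at least 2-fold, against 42.9%. Leaving out 1 library at a time gave 2550 to 2617 genes higher, 2359 to 2427 lower, 559 to 571 at least 2-fold higher and 354 to 362 at least 2-fold lower. Of the 5268 calls, 4326 (82.1%) were made in the same direction without any 1 of the 6 libraries, and 4848 (92.0%) by DESeq2. Without the loci assembled from reads, an alternative chosen after seeing the data, 2672 genes were higher and 2483 lower.

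Same-numbered libraries did not deviate together (correlations of -0.028, 0.077 and -0.028), so the numbers were not taken as pairs. With the replicate number as a block, 2762 genes were higher and 2520 lower. No named gene reversed. Between 1 and 17 of the 398 named genes lost their call in an alternative, among them geminin and mt:Cyt-b. The median kept its sign in every alternative for 58 of 63 lists, the exceptions being the tricarboxylic acid cycle, trehalose, UDP-glycosyltransferase, vacuolar proton pump and salivary gland lists. With the filter of 5 CPM fewer members were tested, and the median moved to -0.51 for muscle contraction (-1.54 as reported). It moved to 0.23 for the list of antimicrobial peptide and Imd or Toll output (1.51), whose tested members were mainly signalling factors and receptors. For hemocytes and crystal cells it moved to -0.15 (-0.76), and for neurons and glia to 0.07 (0.24). For proneural genes it moved to -0.18 (-0.31), and for the ecdysone response to -0.31 (-0.18). Depth limits the lowest level group, where the median SE was 0.46 log2 units.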

Other observations

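Some genes with large changes lay next to each other. Runs of at least 3 neighbouring tested genes, all called at least 2-fold in 1 direction, numbered 27, of which 23 were higher and 4 lower in NAT10 knockdown, and they held 94 of the 872 genes with such a change on the chromosome arms (10.8%). The widest run by number held 6 glutathione transferase genes, GstE1 to GstE8 without GstE2 and GstE4, at 2R:18398393-18408955 (BDGP6.54), with log2 fold changes of 1.09 to 6.05. Genes of such tandem families resemble each other in sequence, and counts can be split between copies.

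The other runs varied in what they held. The cytokine genes upd1, upd2 and upd3 and their neighbour CG6023 lay at X:18240654-18321193 and were higher by 1.02 to 4.98 on the log2 scale. The products tal-1A, tal-2A, tal-3A and tal-AA, small peptides encoded by 1 transcript, and the neighbouring Mst87F at 3R:13813109-13828008 were higher by 2.08 to 6.496, and reads of 1 transcript cannot be told apart by product. Among the runs that were lower, Hsp67Ba, Hsp23 and Hsp27 at 3L:9377802-9385694 had log2 fold changes of -1.65 to -1.38. A run of 4 genes on X, CG3823, CG15894, CG42240 and CG3842 at X:6303975-6343731, had log2 fold changes of -5.74 to -1.04. These genes were chosen after their values were seen, and no chance level was set for runs.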
